A study of Mus musculus with 10 samples.

Results

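The glucocorticoid receptor Nr3c1, the mineralocorticoid receptor Nr3c2, the hormone-activating enzyme Hsd11b1 and 7 genes that glucocorticoids are known to induce (Fkbp5, Tsc22d3, Sgk1, Zbtb16, Pdk4, Cdkn1c and Errfi1) were examined in whole mouse brains after cutaneous Aldara treatment. The 10 genes were taken by name from the annotation of the array, out of 19938 genes with a probeset of 1 symbol. Each of the 10 had 1 probeset, and no probeset was shared with another gene. The samples were perfused whole brains of 10 female wild-type C57BL/6 mice, aged 6 to 8 weeks. In the Aldara group, 5 mice received 80 mg of Aldara cream on shaved dorsal skin every 24 h for 5 applications, and in the control group 5 mice received 80 mg of aqueous cream in the same way. Aldara cream holds 5% imiquimod, a ligand of the Toll-like receptors TLR7 and TLR8, and isostearic acid in its vehicle, so the control cream differed from it in more than imiquimod. Brains were taken 24 h after the last application and hybridised singly to Affymetrix mouse gene arrays. The values are log2 expression values normalised by RMA, in which a difference of 1 is a doubling.

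Glucocorticoids are the steroid hormones that the adrenal cortex releases under the control of hypothalamic corticotropin-releasing hormone and pituitary corticotropin. In the cell they bind the glucocorticoid receptor, which leaves its chaperones, enters the nucleus and binds DNA at glucocorticoid response elements, where it raises or lowers the transcription of nearby genes. In the brain the mineralocorticoid receptor binds the same hormone with higher affinity, and the enzyme encoded by Hsd11b1 regenerates active corticosterone from its inactive form within cells. Fkbp5 and Tsc22d3 are widely used as readouts of receptor activity, since their transcription rises soon after hormone exposure in many tissues.

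Of the 10 genes, 3 were lower in the brains of Aldara-treated mice, Hsd11b1, Cdkn1c and Nr3c2, and none passed the test in the other direction at an adjusted p under 0.05 from limma (1 higher at an unadjusted p under 0.05, Fkbp5, and none by the methods' t-test with adjustment). Among all genes, 22.4% were called lower and 11.8% higher (34.2% in either direction), so a count of 3 of 10 is close to the share of lower genes in these brains as a whole. The median log2 difference of the 10 genes was -0.058, beside -0.046 for all genes. The differences were small. None of the 95% intervals reached beyond 1.37-fold lower or 1.16-fold higher. The groups did not overlap for Hsd11b1 and Cdkn1c, in both cases with the Aldara values below, a pattern that 16.4% of all genes showed (26.4% for no overlap in either direction). With the median difference between groups set to 0, 2 of the 10 were lower and 1, Fkbp5, was higher, and with each array shifted to the same median 5 were lower.

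Facts of the whole series bear on differences of this size. The median log2 value of the probesets tested was 8.10 to 8.14 in control brains and 8.16 to 8.19 in Aldara brains, whereas the median difference between groups over genes was -0.046. Correlations between arrays were 0.998 to 0.999 within the control group, 0.995 to 0.999 within the Aldara group and 0.980 to 0.988 between groups. Aldara replicate 5 stood farthest out on the first principal component, with a score of 29.5 against 17.7 to 23.5 in the other Aldara brains. Calls of the 10 genes that depend on it are therefore given with and without it, as are the directions of Sgk1 and Zbtb16. The brain origin of the samples showed in Snap25, a presynaptic protein gene of neurons, at a log2 value of 13.36 in control mice and 13.26 in Aldara-treated mice.

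**Figure D1:**
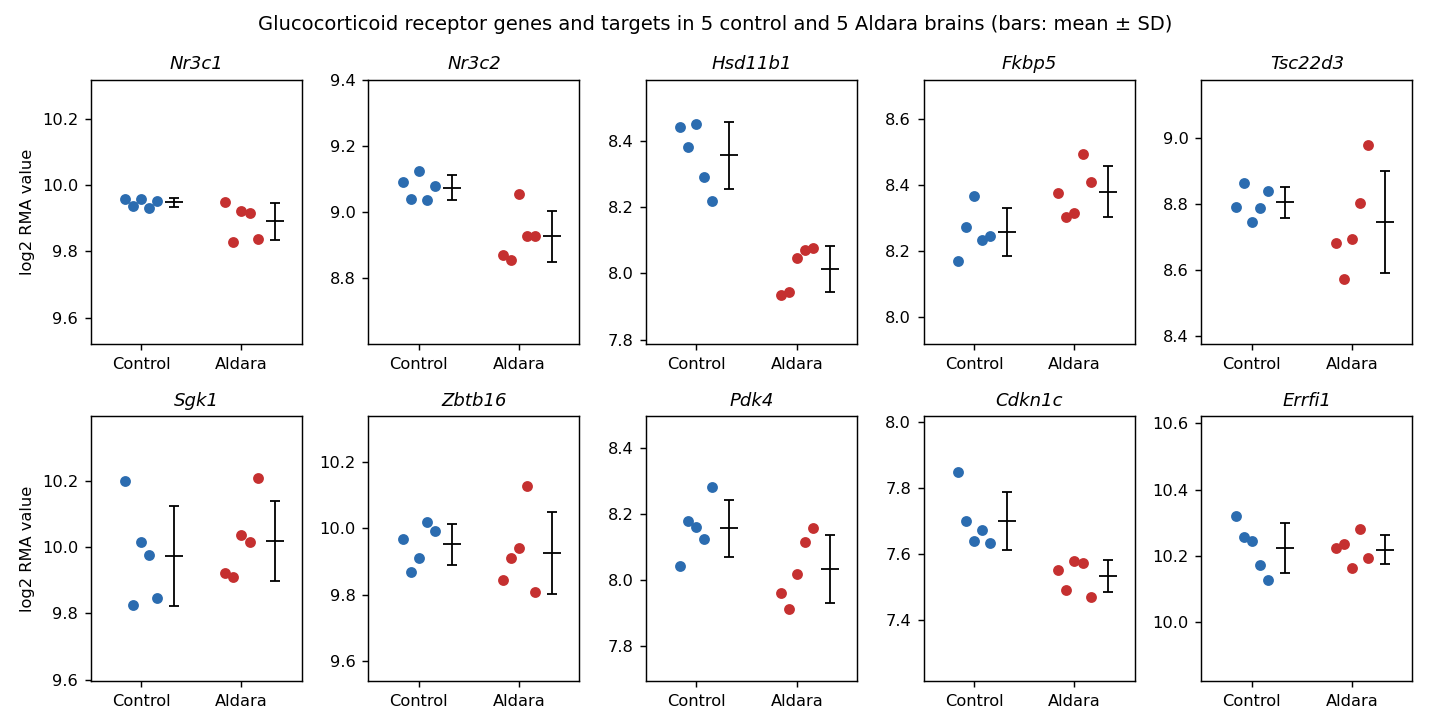
Log2 RMA values of the 10 genes in each of 5 control brains (blue) and 5 Aldara brains (red), with the mean and SD of each group beside the points. Each panel spans 0.8 log2 units around the middle of the 2 group means. All Aldara points lie below all control points for Hsd11b1 and Cdkn1c, and the groups overlap for the other 8 genes.

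Of the receptors, Nr3c2 was lower after Aldara treatment and Nr3c1 did not pass the test. Nr3c1 had log2 values of 9.96, 9.94, 9.96, 9.93 and 9.95 in control replicates 1 to 5 and of 9.95, 9.83, 9.92, 9.92 and 9.84 in Aldara replicates 1 to 5. The control brains lay close together, and 4 of the 5 Aldara brains were below every one of them. The log2 difference of -0.057 (standard error 0.030, 95% interval -0.12 to 0.0083) had an adjusted p of 0.17 from limma, and an exact two-sided permutation test of this gene alone gave p = 0.032 without adjustment. With each array shifted to the same median, Nr3c1 was called lower, at -0.11 (adjusted p = 0.012). Adjusted p ranged from 0.012 to 0.75 over its alternatives.
Nr3c2 had log2 values of 9.09, 9.04, 9.12, 9.04 and 9.08 in control mice and of 8.87, 8.86, 9.05, 8.93 and 8.93 in Aldara-treated mice. Aldara replicate 3 lay among the control brains and the other 4 Aldara brains lay below them. The log2 difference was -0.15 (standard error 0.039, adjusted p = 0.011), equal to 1.11-fold lower (95% interval 1.04 to 1.17). The call was lost with the median difference between groups set to 0, at -0.11 (adjusted p = 0.060), and adjusted p ranged from 0.00098 to 0.060 over its alternatives.

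Hsd11b1 showed the largest difference of the 10 genes. Its log2 values were 8.44, 8.38, 8.45, 8.29 and 8.22 in control mice and 7.94, 7.94, 8.05, 8.07 and 8.08 in Aldara-treated mice. The highest Aldara brain was lower than the lowest control brain. With means of 8.36 ± 0.10 (SD, n = 5) and 8.01 ± 0.070 (SD, n = 5), the log2 difference was -0.34 (standard error 0.050, adjusted p = 2.7e-04 from limma), or 1.27-fold lower (95% interval 1.18 to 1.37). In absolute size it exceeded the differences of 94.2% of all genes. It was called lower under every alternative tried, with log2 differences between -0.39 and -0.30. The enzyme needs NADPH made by hexose-6-phosphate dehydrogenase in the endoplasmic reticulum, and the gene of that enzyme, H6pd, had log2 values of 8.56 and 8.55 in the 2 groups (adjusted p = 0.93). Hsd11b2, which encodes the enzyme that inactivates corticosterone, had a log2 difference of -0.11 (standard error 0.059, adjusted p = 0.17). H6pd and Hsd11b2 fall outside the naming rule and were chosen after their values were seen.

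Among the 7 target genes, only Cdkn1c passed the test, and it was lower. Cdkn1c encodes the cyclin-dependent kinase inhibitor p57, which holds cells out of the cell cycle. It had log2 values of 7.85, 7.70, 7.64, 7.67 and 7.63 in control mice and of 7.55, 7.49, 7.58, 7.57 and 7.47 in Aldara-treated mice. All Aldara brains lay below all control brains, and control replicate 1 lay highest. Cdkn1c had a log2 difference of -0.17 (standard error 0.043, adjusted p = 0.011), or 1.12-fold lower (95% interval 1.05 to 1.20). Without control replicate 1 it was -0.13, and adjusted p stayed between 0.0021 and 0.049 over the alternatives.

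Fkbp5, which encodes a co-chaperone that lowers the hormone affinity of the receptor, was the one target with an upward difference near the threshold. Its log2 values were 8.17, 8.27, 8.37, 8.23 and 8.25 in control mice and 8.37, 8.30, 8.32, 8.49 and 8.41 in Aldara-treated mice. Of the 5 Aldara brains, 3 were above every control brain, and control replicate 3 lay within the Aldara range. The log2 difference was 0.12 (standard error 0.044, adjusted p = 0.053), or 1.09-fold higher (95% interval 1.02 to 1.16, before any adjustment for the number of genes), and the exact two-sided permutation p of this gene alone was 0.032. The call depended on the setting. Fkbp5 was called higher without control replicate 3, at 0.15 (adjusted p = 0.022), without Aldara replicate 2, at 0.14 (adjusted p = 0.036), and without Aldara replicate 3, at 0.14 (adjusted p = 0.048). It was also called with the median difference between groups set to 0, at 0.16 (adjusted p = 0.016). With each array shifted to the same median the difference was 0.074 (adjusted p = 0.18).

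Tsc22d3, which encodes the leucine zipper protein GILZ that mediates anti-inflammatory effects of glucocorticoids, did not pass the test. Its log2 values were 8.79, 8.86, 8.75, 8.79 and 8.84 in control mice and 8.68, 8.57, 8.69, 8.80 and 8.98 in Aldara-treated mice. The Aldara brains spread on both sides of the controls, with 3 below every control brain and Aldara replicate 5 above every control brain, and their SD was 0.15 against 0.046. The log2 difference was -0.059 (standard error 0.063, 95% interval -0.20 to 0.079, adjusted p = 0.51). Without Aldara replicate 5 it was -0.12 (adjusted p = 0.067).
Sgk1, a kinase gene that both corticosteroid receptors induce, had log2 values of 10.20, 9.83, 10.02, 9.98 and 9.85 in control mice and of 9.92, 9.91, 10.04, 10.02 and 10.21 in Aldara-treated mice. The highest brain of each group, control replicate 1 and Aldara replicate 5, stood at nearly the same value. The log2 difference was 0.046 (standard error 0.075, 95% interval -0.12 to 0.21, adjusted p = 0.68), which in folds is 0.92 to 1.16, and it was -0.0018 without Aldara replicate 5 and -0.0024 with each array shifted to the same median.

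Zbtb16, Pdk4 and Errfi1 did not pass the test either. Zbtb16 encodes the transcriptional repressor PLZF, and its log2 values were 9.97, 9.87, 9.91, 10.02 and 9.99 in control mice and 9.85, 9.91, 9.94, 10.13 and 9.81 in Aldara-treated mice. Aldara replicate 4 was the highest of all 10 brains and Aldara replicate 5 the lowest, and the log2 difference was -0.026 (standard error 0.055, 95% interval -0.15 to 0.096). It was 0.016 with the median difference between groups set to 0 and 0.0040 without Aldara replicate 5.
Pdk4, a kinase gene that restrains the use of glucose by mitochondria, had log2 values of 8.04, 8.18, 8.16, 8.12 and 8.28 in control mice and of 7.96, 7.91, 8.02, 8.11 and 8.16 in Aldara-treated mice. Of the Aldara brains, 3 were below every control brain. The log2 difference was -0.12 (standard error 0.054, adjusted p = 0.10). It was called lower without Aldara replicate 5, at -0.16 (adjusted p = 0.041), with each array shifted to the same median, at -0.17 (adjusted p = 0.019), and with quantile normalisation, at -0.17 (adjusted p = 0.023).
Errfi1, which encodes an inhibitor of the epidermal growth factor receptor, had the smallest difference of the 10 genes. Its log2 values were 10.32, 10.26, 10.24, 10.17 and 10.13 in control mice and 10.22, 10.24, 10.16, 10.28 and 10.19 in Aldara-treated mice, all of the latter within the control range. Its log2 difference was -0.0052 (standard error 0.039), and its 95% interval of -0.091 to 0.080 allows a change of at most 1.06-fold in either direction. The sign of this difference changed in 7 of the alternatives, among them the fit without Aldara replicate 5.

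**Figure D2:**
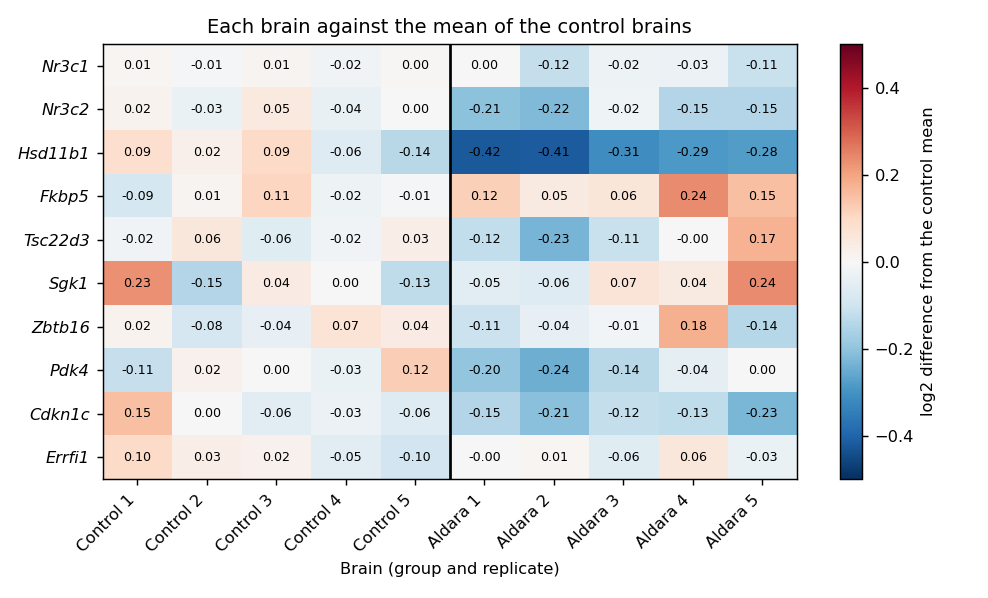
Difference of each brain from the mean of the 5 control brains, in log2 units, for the 10 genes (rows) in 5 control and 5 Aldara brains (columns). Hsd11b1 is lower in all 5 Aldara brains, by 0.28 to 0.42, whereas Tsc22d3, Sgk1 and Zbtb16 differ in sign between Aldara brains.

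The mean over the target genes differed in sign between treated mice. Averaged over the 7 targets, the log2 difference from the control mean was -0.073, -0.10, -0.046, 0.049 and 0.023 in Aldara replicates 1 to 5, against -0.015 to 0.039 in the control mice. Aldara replicates 4 and 5 were thus on the other side of the control mean from Aldara replicates 1 to 3, though Aldara replicate 5 lay within the control range. Aldara replicate 2 had the lowest value of its group for 6 of the 10 genes and the highest for none, and Aldara replicates 4 and 5 together had the highest value for 7. Such counts were not made over all genes, so they cannot be read as particular to these 10. The labels do not say whether the replicate numbers follow any order, and groups of 5 brains are too small for a correlation within a group. These values are therefore given as a description. The SD was larger in the Aldara group than in the control group for 6 of the 10 genes, and it was so for 53.7% of all genes.

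**Figure D3:**
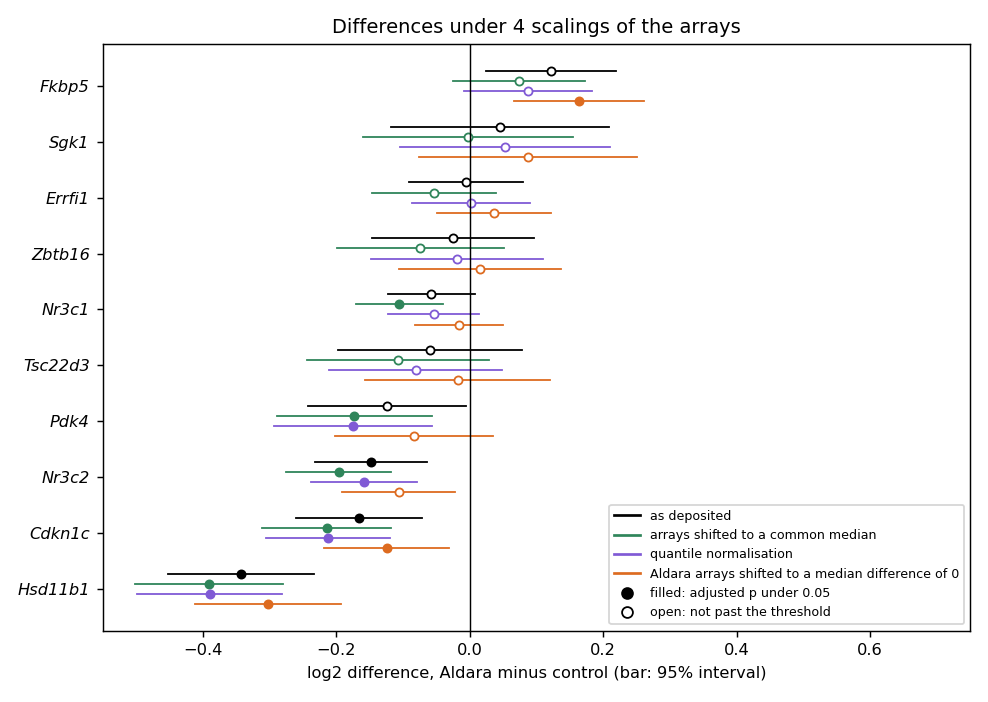
Log2 difference between groups (points) with its 95% interval (bars) for the 10 genes, as deposited and under 3 other scalings of the arrays. Filled points passed an adjusted p of 0.05. Hsd11b1 and Cdkn1c are filled under all 4 scalings, Nr3c2 is open when the median difference is set to 0, and Fkbp5 is filled there only.

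Promoter windows are shown for 2 targets, Sgk1, where 1 window holds the DNA that the receptor recognises, and Tsc22d3, where 1 holds only a part of it. Windows are also shown for the genes at the 2 ends of the range of differences. The glucocorticoid response element is a pair of inverted half-sites with 3 bases between them, and the search used AGAACA and TGTTCT with any 3 bases (N) between them for the whole element, GNACA and TGTNC with any 3 bases between them for a looser form that includes it, and AGAACA or TGTTCT for a half-site, all of which cover both strands. The windows, from RefSeq on GRCm38.p6, run from 250 bases before to 50 bases after a transcription start. They were given for 7 of the 10 genes, in 15 windows, and not for Nr3c1, Zbtb16 and Cdkn1c. Sgk1 had 6 of the windows, Tsc22d3 had 3, and Hsd11b1 and Fkbp5 had 1 each, so the genes were not searched over equal lengths. The whole element was found in 1 window of Sgk1, and in 3 of all 32851 windows (0.00913%). The looser form was found in that Sgk1 window only among the 15, and in 0.475% of all windows. A half-site was found in 4 of the 15 windows, in Sgk1 and Tsc22d3, and in 19% of all windows. Capitals mark the whole element in the Sgk1 window (chr10:21993640-21993939, plus strand), where it lies 189 to 175 bases before the start, and the half-site in the Tsc22d3 window (chrX:140600473-140600772, minus strand). The windows of Hsd11b1 (chr1:193242311-193242610, minus strand) and Fkbp5 (chr17:28486100-28486399, minus strand) held none of the 3.
Sgk1: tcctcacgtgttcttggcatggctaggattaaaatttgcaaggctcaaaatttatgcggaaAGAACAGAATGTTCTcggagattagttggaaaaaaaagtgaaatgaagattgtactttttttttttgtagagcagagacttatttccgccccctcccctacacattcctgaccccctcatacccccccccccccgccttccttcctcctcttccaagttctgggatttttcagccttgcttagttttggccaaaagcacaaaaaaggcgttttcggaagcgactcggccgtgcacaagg
Tsc22d3: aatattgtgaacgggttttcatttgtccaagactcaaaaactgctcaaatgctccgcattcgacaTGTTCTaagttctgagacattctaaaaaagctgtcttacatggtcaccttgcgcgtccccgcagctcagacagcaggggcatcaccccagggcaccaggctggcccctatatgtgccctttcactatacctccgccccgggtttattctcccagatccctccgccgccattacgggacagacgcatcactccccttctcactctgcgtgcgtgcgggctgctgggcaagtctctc
Hsd11b1: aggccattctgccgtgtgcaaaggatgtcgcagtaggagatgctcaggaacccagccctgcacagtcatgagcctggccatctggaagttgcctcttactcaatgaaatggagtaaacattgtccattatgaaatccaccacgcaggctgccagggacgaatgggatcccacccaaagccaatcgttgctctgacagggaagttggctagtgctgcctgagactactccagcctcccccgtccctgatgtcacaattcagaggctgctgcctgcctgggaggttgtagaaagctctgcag
Fkbp5: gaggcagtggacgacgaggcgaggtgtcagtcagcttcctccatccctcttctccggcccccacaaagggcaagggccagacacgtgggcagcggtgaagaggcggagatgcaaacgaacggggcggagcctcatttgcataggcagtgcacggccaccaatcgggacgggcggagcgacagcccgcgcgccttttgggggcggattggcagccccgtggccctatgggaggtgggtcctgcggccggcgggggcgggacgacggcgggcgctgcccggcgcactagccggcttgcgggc
A match of letters does not show that the receptor was bound there in these brains, and no match says only that these letters were not in this window. Sgk1, with the whole element in 1 of its windows, had a log2 difference of 0.046 (95% interval -0.12 to 0.21). Fkbp5, with none of the 3 forms in its only window, had 0.12.

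Further genes known to be induced by glucocorticoids moved in both directions. Of 28 measured genes of such a list, 6 were higher and 9 lower, which is 21.4% and 32.1% beside 11.8% and 22.4% of all genes, and 13 did not pass the test. The median log2 difference of the list was -0.11. The largest increase was that of Lcn2, the gene of the iron-sequestering acute-phase protein lipocalin-2, with log2 values of 6.30 to 6.54 in control mice and 8.29 to 8.63 in Aldara-treated mice. Its log2 difference of 2.13 (standard error 0.065) is 4.39-fold higher. Txnip, which encodes an inhibitor of thioredoxin and glucose uptake, rose by 0.96 (standard error 0.050) and Anxa1, an anti-inflammatory protein gene of leukocytes and microglia, by 0.72 (standard error 0.078). Lcn2 and Anxa1 are also known to be expressed by leukocytes and in inflamed tissue.
The largest decreases of that list were those of Dusp1, Sult1a1 and Glul. Dusp1, a phosphatase gene that switches off MAP kinases and is also an early gene of neuronal activity, had log2 values of 10.74, 10.69, 10.66, 10.51 and 10.24 in control mice and of 10.07, 10.20, 10.04, 10.19 and 9.76 in Aldara-treated mice. The groups did not overlap, though control replicate 5 came close to the highest Aldara brain, and the log2 difference was -0.52 (standard error 0.10, adjusted p = 0.0021), or 1.43-fold lower. Sult1a1, a sulfotransferase gene, fell by 0.33 (standard error 0.047), and Glul, the glutamine synthetase gene of astrocytes, fell by 0.26 (standard error 0.030) on the log2 scale. Klf9 and Ddit4, 2 direct targets of the receptor, were lower, Klf9 by a log2 difference of -0.17 (standard error 0.032) and Ddit4 by -0.18 (standard error 0.045). Per1, a clock gene with a response element in its promoter, did not pass the test, at -0.040 (standard error 0.076). Of the other genes called in the list, Cebpd, Nfkbia and Bcl6 were higher, by 0.28 (standard error 0.055), 0.21 (standard error 0.046) and 0.14 (standard error 0.044). Klf15, Mt1, Il1r2 and Cd163 were lower, with log2 differences of -0.15, -0.18, -0.19 and -0.20. The calls of Bcl6, Klf15 and Il1r2 did not hold by the methods' t-test, nor in several of the fits that left out 1 array. Those of Klf15, Mt1 and Il1r2 were lost with the median difference between groups set to 0, where 6 genes of the list were lower. The call of Mt1 was also lost without control replicate 5 and without Aldara replicate 1. Genes of the list other than Lcn2, Txnip, Anxa1, Dusp1, Sult1a1 and Glul were named after their values were seen.

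**Figure D4:**
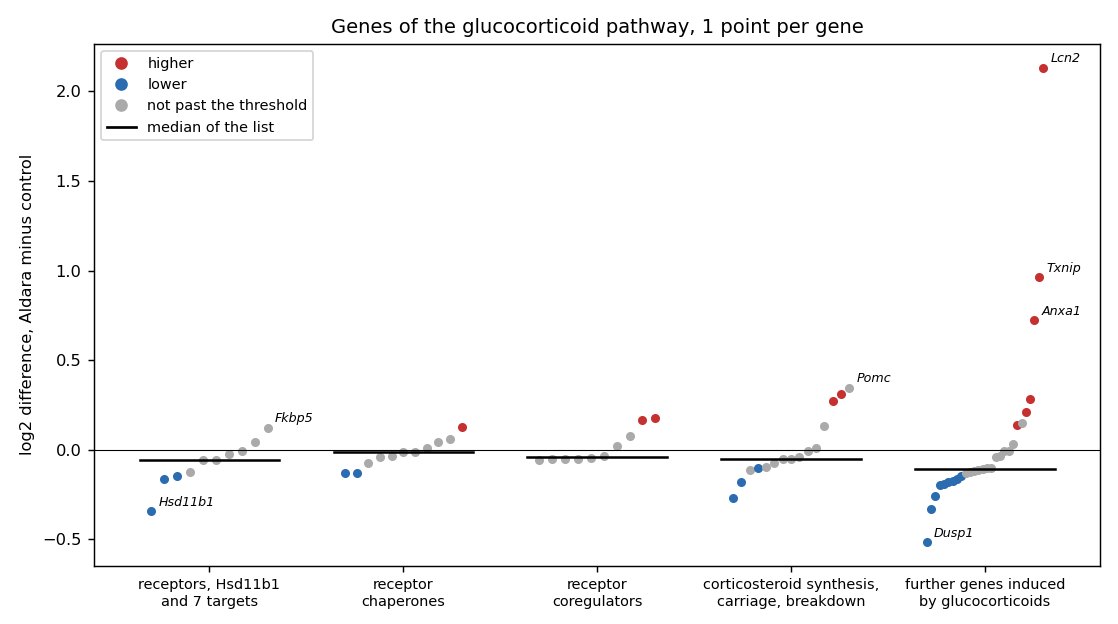
Log2 difference between groups of each gene (points) in 5 lists, the 10 genes examined on the left, with the median of each list as a black line. Red points were higher and blue points lower at an adjusted p under 0.05, and grey points did not pass. The list of further induced genes spans -0.52 for Dusp1 to 2.13 for Lcn2, and the other lists stay within 0.35 of 0.

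Of 11 measured genes for chaperones and co-chaperones that hold the receptor, Bag1 was higher and Fkbp4 and Stub1 were lower, which is 9.09% and 18.2% beside 11.8% and 22.4% of all genes. The median log2 difference was -0.013, and with each array shifted to the same median 4 genes were lower and 0 higher. Fkbp4 encodes the co-chaperone that competes with FKBP5 and favours transport of the receptor to the nucleus. It had log2 values of 9.50 to 9.58 in control mice and 9.36 to 9.49 in Aldara-treated mice, with a difference of -0.13 (standard error 0.032, adjusted p = 0.0080). Stub1, a ubiquitin ligase gene that acts on chaperone clients, also had a difference of -0.13 (standard error 0.033), and both calls were lost with the median difference between groups set to 0 (adjusted p = 0.057 and 0.067). Bag1, a chaperone cofactor gene, was higher by 0.13 (standard error 0.042, adjusted p = 0.036), a call that did not hold when any of control replicates 2 to 5 or Aldara replicate 2 was left out (adjusted p = 0.053 to 0.082), nor with each array shifted to the same median (0.078, adjusted p = 0.13). Without Aldara replicate 5, the highest brain for Bag1, the difference was 0.088 (adjusted p = 0.043).
Of 10 measured coregulator genes, Ncoa3 and Tgs1 were higher, by 0.17 (standard error 0.035) and 0.18 (standard error 0.040), and the groups did not overlap for either. Among all genes, 9.93% had all Aldara values above all control values. For Crebbp all Aldara values lay below all control values, as for 16.4% of all genes. The share of 20% called higher stands beside 11.8% of all genes. Ncoa3 encodes a coactivator of nuclear receptors and Tgs1 an RNA cap methyltransferase that also binds such coactivators. No coregulator gene was called lower by limma (1 at an unadjusted p under 0.05), whereas 2 were by the methods' t-test, Crebbp and Smarca4, and 5 were by limma with each array shifted to the same median (Crebbp, Ncoa1, Ncoa2, Nrip1 and Smarca4). The median log2 difference of the coregulator list was -0.039.

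Genes for the supply, carriage and export of corticosteroids showed 5 calls among 15 measured, 2 higher and 3 lower, which is 13.3% and 20% beside 11.8% and 22.4% of all genes (34.2% in either direction). The median log2 difference was -0.051. Abcb1a and Abcb1b, which encode the P-glycoprotein pumps that export steroids and drugs at the blood-brain barrier and in leukocytes, were higher. Abcb1a had log2 values of 8.94, 9.10, 9.11, 9.12 and 9.32 in control mice and of 9.45, 9.36, 9.52, 9.53 and 9.26 in Aldara-treated mice, so that Aldara replicate 5 overlapped the controls. Its log2 difference was 0.31 (standard error 0.069, adjusted p = 0.0046), and that of Abcb1b was 0.27 (standard error 0.040, adjusted p = 3.1e-04) with no overlap.
Avp, the vasopressin gene of hypothalamic neurons, which acts with corticotropin-releasing hormone on the pituitary, was lower by a log2 difference of -0.18 (standard error 0.047, adjusted p = 0.010). The steroid synthesis genes Cyp11a1 and Cyp11b1 were lower, the former by a log2 difference of -0.27 (standard error 0.054) and the latter by -0.10 (standard error 0.032). The call of Cyp11b1 did not hold when control replicate 3, Aldara replicate 1 or Aldara replicate 4 was left out (adjusted p = 0.057, 0.065 and 0.066), with quantile normalisation (adjusted p = 0.092), with an intensity trend and robust prior (adjusted p = 0.062) and with the median difference between groups set to 0 (adjusted p = 0.18). Crh, the releasing hormone itself, did not pass the test, at -0.072 (standard error 0.033, adjusted p = 0.12), although it was called lower without Aldara replicate 5, at -0.094 (adjusted p = 0.034), which raised the lower count of the list from 3 to 4.
Pomc, the precursor gene of corticotropin, had log2 values of 7.95 and 8.62 in Aldara replicates 1 and 4 and of 7.03 to 7.25 in the other Aldara brains, against 7.18 to 7.39 in control mice. Its log2 difference of 0.35 (standard error 0.25, 95% interval -0.20 to 0.89, adjusted p = 0.31) did not pass the test. Prl, the prolactin gene of the anterior pituitary, was highest of all 10 brains in Aldara replicate 4, at 7.58 against 5.50 to 6.46 in control mice. It stood at 5.85 in Aldara replicate 1. Gh, another pituitary hormone gene, stood at 7.35 in Aldara replicate 4 and 7.46 in Aldara replicate 3, against 7.09 to 7.29 in control mice. The pituitary hormone genes Cga, Tshb and Lhb were within the control range in Aldara replicate 4, and Fshb was below it. The sources used here do not say whether pituitary tissue stayed with the brains, and its part in the Pomc values was not tested. Crh, Pomc, Prl and the other pituitary hormone genes were named after their values were seen.

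Markers of the cell types that a whole brain holds also differed between the groups, in both directions. In bulk RNA, fewer cells of a type and less RNA per cell cannot be told apart. The counts below stand beside 22.4% of all genes called lower and 11.8% called higher. Of 10 neuron markers 9 were lower, with a median log2 difference of -0.14 and list means of -0.14 to -0.094 in the Aldara brains against -0.015 to 0.012 in the control brains, relative to the control mean. The largest difference among them was that of Slc17a7, a vesicular glutamate transporter gene, at -0.21. Of 10 astrocyte markers 7 were lower and 3 higher (median -0.21, list means -0.073 to 0.049 in Aldara brains against -0.040 to 0.024), the extremes being Ntsr2 at -0.74 and Gfap at 1.73. Of 12 markers of choroid plexus and meninges 4 were lower and 2 higher (median -0.13, list means -0.15 to 0.010 against -0.064 to 0.13). These are 33.3% and 16.7% of that list, not far from the shares of all genes for so few markers. The extremes were Ttr at -0.82 and Dcn, a matrix proteoglycan of meningeal fibroblasts, at 0.86.
Markers of vessels and immune cells were mostly higher. Of 12 endothelial and mural markers 8 were higher (median 0.16, list means 0.29 to 0.40 against -0.025 to 0.041), with the largest difference in Pecam1 at 0.96. Of 11 leukocyte markers 9 were higher (median 0.79, list means 1.12 to 1.26 against -0.048 to 0.047), with Lyz2 at 3.62. Of 9 microglia markers 6 were higher and 2 lower (median 0.37, list means 0.20 to 0.42 against -0.070 to 0.10), with Olfml3 at 1.10, and of 9 oligodendrocyte markers 3 were higher and 1 lower (median -0.0026, list means -0.031 to 0.087 against -0.031 to 0.046), with Cldn11 at 0.29. The oligodendrocyte counts are 33.3% higher and 11.1% lower, beside 11.8% and 22.4% of all genes. The part of these shifts in the differences of Hsd11b1, Nr3c2, Cdkn1c and the other genes named was not tested.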

How the data were processed

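Gene expression was measured in perfused whole brains of 5 Aldara-treated and 5 control mice, 1 Affymetrix mouse gene array per mouse. The deposited values are on the log2 scale. To make them, the authors ran RMA (background correction, quantile normalisation across arrays, 1 summary value per probeset) within the GeneSpring GX program. The software version and library file are not given in the sources used here, and scanner values were not used, so no probeset could be called detected or not. Of 28856 probesets, 21789 had 1 gene symbol, 1621 several and 5446 none in the platform annotation, which can be old. All 10 genes examined were matched to RefSeq by Entrez identifier.

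The 23410 probesets with a symbol were compared with limma 3.58.1 (lmFit, eBayes) in R 4.3.3, Aldara minus control, with Benjamini-Hochberg adjustment over all of them and a threshold of 0.05. Standard errors and 95% intervals are those of the moderated fit. For lists and for the background, 1 probeset per gene was used, the brightest on average among those with 1 symbol, giving 19938 genes. Exact permutation tests were run over the 10 arrays. The smallest p that 5 against 5 allow is 0.0079. The tests were run on simulated data with planted changes, where recovery was required only of changes far larger than those of the 10 genes. That check does not show how well differences as small as theirs are found. Precision is limited by how many arrays there are.

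The 10 genes, the lists and the alternatives were chosen with earlier results of these data known. In each further list, all genes called were named where 6 or fewer were, and otherwise the 3 with the largest difference in each direction. In marker lists the gene with the largest difference was named, with the opposite extreme for astrocytes and for choroid plexus and meninges. Some genes of the lists are not reported here. Alternatives were other scalings, other sets of probesets, a block for replicate numbers, weights per array, the t-test named in the methods, a robust prior fitted with a trend in intensity, and leaving out each array. For the 10 genes the exact permutation test, without adjustment, was counted as a further alternative. Numbers shared by replicates did not pair the arrays.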

Additional observations from a re-analysis of the deposited data

Results flagged for a closer look

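Sets of 5 values, 1 per group, were examined for the 10 genes and for the genes that the naming rule chose in the further lists. Markers and genes named outside that rule were not examined. Of 52 such sets, 6 held a brain whose gap to its nearest neighbour took up more than 0.71 of the range, and chance alone gives about 1 such set in 20. None was a value of the receptors, Hsd11b1 or the 7 targets. Fkbp4 stood at 9.58 in control replicate 1 (next value 9.52) and at 9.49 in Aldara replicate 4 (next value 9.38). Bag1 stood at 9.99 in Aldara replicate 5 (next value 9.83), and Stub1 at 9.84 in control replicate 2 (next value 9.93). Cyp11b1 stood at 6.32 in control replicate 3 (next value 6.29), and Txnip at 9.23 in Aldara replicate 2 (next value 9.46).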

How the results depend on the processing

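Over the alternatives, 182 of 208 values of the 10 genes kept their direction and their side of the threshold. The 208 include an exact permutation test of each gene, whose unadjusted p was set against 0.05. By that test Nr3c1 and Fkbp5 crossed the threshold, each at an unadjusted permutation p of 0.032. Hsd11b1 and Cdkn1c were called lower in each alternative that tested them, Cdkn1c and Pdk4 not being among the brighter probesets. The count of higher genes among the 10 was 0 and became 1, Fkbp5, with the median difference set to 0, with only probesets of 1 symbol, with only brighter probesets and with array weights, and 0 to 1 when 1 array was left out. The count of lower genes was 3, became 5 with the arrays at a common median, and was 3 to 4 when 1 array was left out. Sgk1 changed sign with the arrays at a common median (-0.0024), Zbtb16 (0.016) and Errfi1 (0.036) with the median difference set to 0, and Errfi1 with quantile normalisation (0.0022). When 1 array was left out, Sgk1 ran from -0.0018 to 0.10, Zbtb16 from -0.076 to 0.0040 and Errfi1 from -0.029 to 0.019, none past the threshold.
With the arrays at a common median, chaperones had 0 higher (main 1) and 4 lower (main 2), coregulators 5 lower (main 0), corticosteroid supply 7 lower (main 3) and further induced genes 15 lower (main 9). With the median difference at 0, chaperones had 0 lower and further induced genes had 6 lower (main 9). With only brighter probesets, corticosteroid supply had 1 higher (main 2) and 0 lower, and further induced genes had 3 higher (main 6), since fewer genes were tested. By the methods' t-test, chaperones had 0 higher and coregulators 2 lower. Higher chaperones were 0 to 2 when 1 array was left out. Over all probesets, 2901 were higher and 4926 lower, so that 37.1% of those called were higher, against 2299 and 9606 (19.3%) at a common median and 3833 and 2760 (58.1%) with the median difference at 0.
The correlation of deviations between arrays of the same replicate number was 0.18, 0.25, 0.038, -0.11 and 0.073 for numbers 1 to 5, so the numbers were not taken as pairs. With the replicate number as a block, 0 of the 10 genes were higher and 4 were lower, Pdk4 being added (adjusted p = 0.049), and 2701 probesets were higher and 4421 lower. Averaging several probesets of a gene was not run, since each of the 10 genes had 1. The lack of a measure above background limits what can be said of dim probesets such as those of Cyp11a1 and Cyp11b1.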
